A study of Homo sapiens with 6 samples.

Results

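To examine how the interferon system of bladder cancer cells differed after FOXC1 disruption, 59 genes of innate sensing, interferon signalling and interferon response were followed in RNA-seq counts. The genes were taken from a fixed list of symbols and divided by role into 14 sensors and adaptors, 13 signalling components and 32 effectors. All 59 were found among the 57820 genes of the count table, 3 of them through older symbols, and all 59 were among the 15647 genes kept after the filter on low counts. The libraries came from J82 cells, a line of human bladder cancer grown in DMEM with fetal bovine serum. In the FOXC1 KO group (n = 3), a lentiviral CRISPR/Cas9 construct with 1 guide had been directed at FOXC1, a forkhead transcription factor, and the cells had been selected with puromycin. The control group (n = 3) was J82 with a vector, per the study's methods, and no interferon treatment was named for either group. The methods speak of knockout clones, but nothing in the labels says whether the 3 KO libraries came from 1 clone or whether replicates were separate cultures, so the p-values measure the spread between these libraries, which may be technical.

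Cells detect foreign or displaced nucleic acids with sensors, among them the RNA helicases RIG-I (DDX58) and MDA5 (IFIH1) and the DNA sensor cGAS (MB21D1), which signal through the adaptors MAVS and STING (TMEM173). The interferons made in response bind receptors on the cell surface, whose kinases JAK1 and TYK2 activate transcription factors such as STAT2. With IRF9, STAT2 is part of a complex that binds the interferon-stimulated response element (ISRE) in the promoters of interferon-stimulated genes, whose products block viral entry, translation and replication. Many of these genes are also transcribed at a low level without added interferon, and some tumour cell lines keep them at a high level.

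The promoters of these genes are the stretch of DNA through which that complex acts. RefSeq promoters (GRCh38.p14, 250 bases before to 50 bases after each start) were available for 45 of the 59 genes. An ISRE core, read as GAAA, any 2 bases and GAAA on either strand, was held by 24 of the 45 (53.3%) and by 4.38% of all 27305 genes with a promoter entry. Of 5 genes that were lower in KO libraries and 1 that was not, the promoters are printed 5′ to 3′ on the strand of the gene, with the ISRE matches in capitals. The 5 were IFI6 (chr1:27672143-27672442, minus strand), HERC5 (chr4:88456869-88457168, plus strand), IFIT1 (chr10:89392373-89392672, plus strand), IFITM3 (chr11:320811-321110, minus strand) and OAS3 (chr12:112938224-112938523, plus strand). IFIT5 (chr10:89414318-89414617, plus strand) is shown because it held 3 matches, as many as IFI6, while its transcript level did not differ detectably.
IFI6: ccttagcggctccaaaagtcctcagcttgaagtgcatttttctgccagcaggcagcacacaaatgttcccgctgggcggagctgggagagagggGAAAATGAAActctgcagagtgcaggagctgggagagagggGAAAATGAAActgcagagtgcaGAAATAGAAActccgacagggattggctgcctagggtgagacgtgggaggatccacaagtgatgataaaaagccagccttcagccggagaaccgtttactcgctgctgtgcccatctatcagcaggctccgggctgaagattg
HERC5: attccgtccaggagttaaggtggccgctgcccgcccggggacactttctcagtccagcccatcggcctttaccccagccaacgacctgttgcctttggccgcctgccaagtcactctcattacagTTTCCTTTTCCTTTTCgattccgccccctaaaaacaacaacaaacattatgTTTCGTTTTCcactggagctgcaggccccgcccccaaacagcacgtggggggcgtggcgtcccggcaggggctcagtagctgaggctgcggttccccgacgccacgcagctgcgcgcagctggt
IFIT1: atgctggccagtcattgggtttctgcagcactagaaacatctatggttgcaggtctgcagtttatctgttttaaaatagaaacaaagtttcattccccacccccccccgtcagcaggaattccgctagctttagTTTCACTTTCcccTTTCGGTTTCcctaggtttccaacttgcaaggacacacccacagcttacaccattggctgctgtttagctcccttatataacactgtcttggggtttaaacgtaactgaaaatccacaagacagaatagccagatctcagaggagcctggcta
IFITM3: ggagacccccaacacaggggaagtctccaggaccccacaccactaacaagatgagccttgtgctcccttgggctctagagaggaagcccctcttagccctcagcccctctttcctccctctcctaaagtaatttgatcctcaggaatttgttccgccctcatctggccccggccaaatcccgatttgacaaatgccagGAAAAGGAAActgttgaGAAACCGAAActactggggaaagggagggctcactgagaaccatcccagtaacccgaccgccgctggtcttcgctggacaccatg
OAS3: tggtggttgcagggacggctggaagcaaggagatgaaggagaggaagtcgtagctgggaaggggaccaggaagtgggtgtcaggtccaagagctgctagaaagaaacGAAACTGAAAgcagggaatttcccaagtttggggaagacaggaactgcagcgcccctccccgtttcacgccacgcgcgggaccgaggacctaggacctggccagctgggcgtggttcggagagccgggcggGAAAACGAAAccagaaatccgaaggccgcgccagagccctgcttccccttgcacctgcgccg
IFIT5: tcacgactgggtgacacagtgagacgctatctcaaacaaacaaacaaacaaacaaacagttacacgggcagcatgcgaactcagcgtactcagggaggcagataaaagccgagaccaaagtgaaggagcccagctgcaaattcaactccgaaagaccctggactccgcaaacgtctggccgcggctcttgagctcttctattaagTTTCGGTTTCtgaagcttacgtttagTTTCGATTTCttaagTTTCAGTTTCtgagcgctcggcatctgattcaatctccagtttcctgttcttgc

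The 6 libraries held 18408134 to 25350908 counts, so that 3 counts, taken as the floor for a gene, corresponded to 0.118 to 0.163 CPM (counts scaled to library size), a limit that covers counting error only. Libraries of a group were distinct, with a chi-square per gene of 2.95 to 10.1 between them. FOXC1 itself was measured at 18.4, 16.9 and 19.3 CPM in control and at 24.1, 22.2 and 21.1 CPM in KO libraries. Its log2 fold change was 0.30 (SE 0.0914, edgeR adjusted p = 0.0127), which is below the 1.3-fold required for a call. The transcript was therefore not lower where the gene had been targeted, and it does not check the labels. Per the study's methods the knockout had been checked on protein by Western blot, which was not analysed here. FOXC1 KO stands below for the libraries labelled so. Of the markers of the labelled cell type, KRT7 (992 ± 103 CPM in control, SD, n = 3), KRT8, KRT18, GATA3 and PPARG were present. The urothelial markers KRT5, KRT20, UPK1A, UPK1B and UPK3A each stayed at or below 0.0793 CPM in every library.

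Of the 59 interferon genes, 18 (30.5%) were called lower in FOXC1 KO libraries and 0 were called higher. A call needed an adjusted p under 0.05 (edgeR quasi-likelihood test, Benjamini-Hochberg over all tested genes) and a fold change over 1.3, which is 0.38 on the log2 scale. Across all 15647 tested genes 8.39% were called lower and 7.57% higher by the same rule. At an unadjusted p under 0.05, 40 of the interferon genes lay lower and 2 higher, where 19.4% of all tested genes lay lower and 20.4% higher. DESeq2 called 17 lower and 0 higher, beside 5.78% and 6.07% of the 17225 genes to which it gave an adjusted p. By adjusted p alone, 37 lay lower and 2 higher, where 14.3% of all tested genes lay lower and 15.2% higher. The 2 were MAVS and TYK2.

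The differences were small and shared by many genes. The median log2 fold change of the 59 genes was -0.31, with a range of -0.79 to 0.35, beside a median of -0.00 over all tested genes. The fold change was below zero for 46 of the 59 and for 50.1% of all tested genes. Every KO library lay below every control library in CPM for 40 of the 59 genes, where this held for 20.8% of all tested genes. The opposite order was found for 3 of the 59 (MAVS, TYK2 and IFNAR1), where it held for 20.5% of all tested genes, and the groups overlapped for the other 16. In these libraries, less RNA per cell and fewer cells with a high level cannot be told apart.

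**Figure D1:**
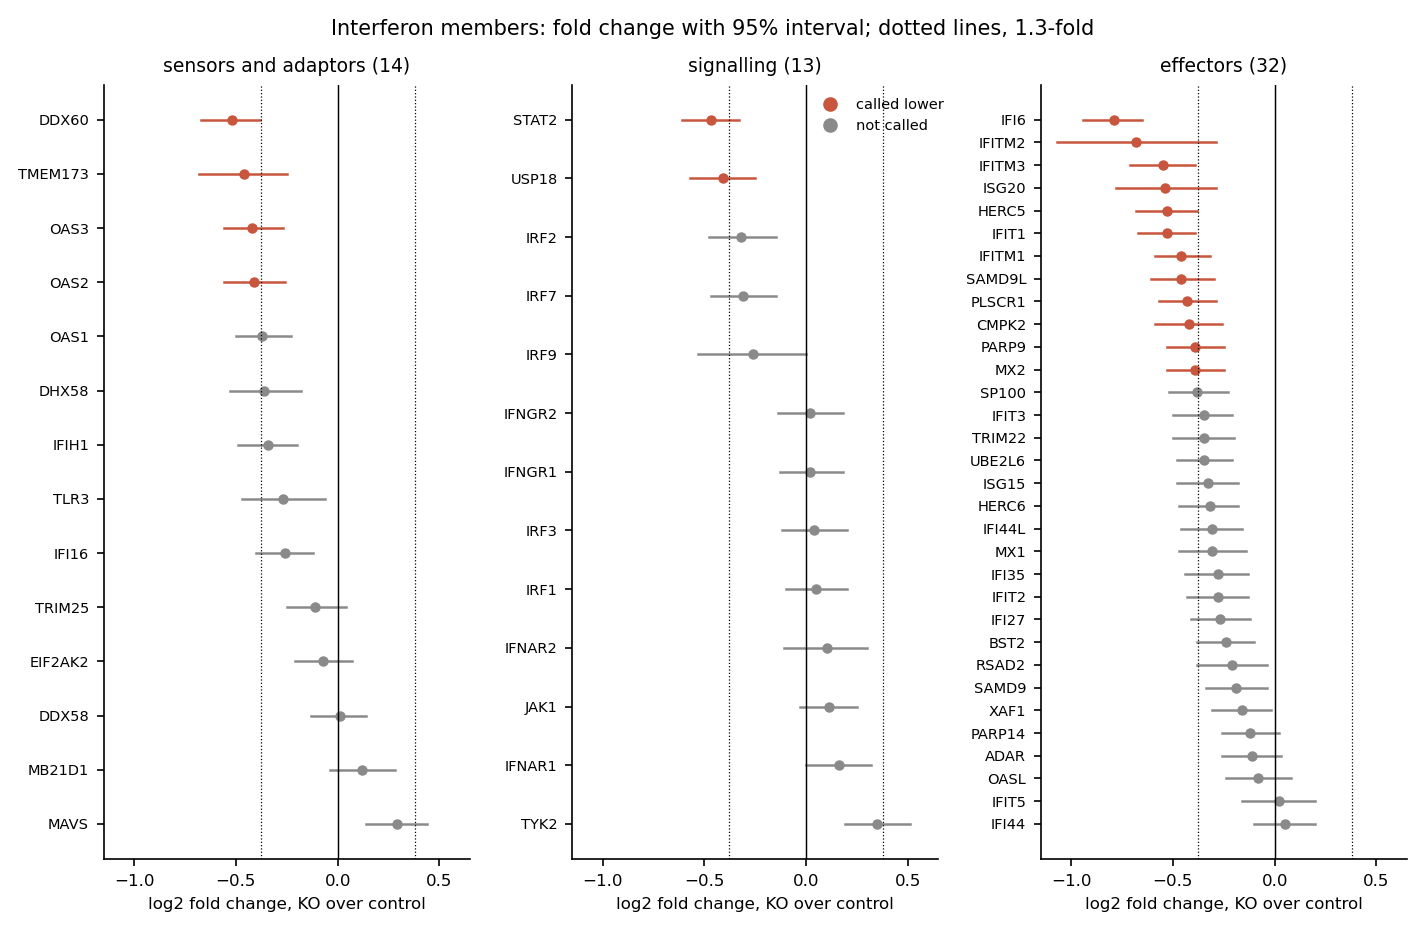
Log2 fold change of each of the 59 genes (KO over control, x axis) with its 95% interval from edgeR, in 3 panels by role, with called genes in red and dotted lines at 1.3-fold. The effectors crowd to the left of zero down to IFI6 at -0.79, while 8 of the 13 signalling genes lie to the right of zero.

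The difference was of similar size in each KO library. Relative to the control mean, the median gene deviated by -0.29, -0.32 and -0.30 on the log2(CPM + 0.5) scale in KO libraries 1 to 3, and by 0.04, -0.02 and -0.01 in control libraries 1 to 3. In the KO libraries 49, 50 and 48 of the 59 genes lay below their control mean. The 59 genes together took 1.46 to 1.49% of all counts in control libraries and 1.16 to 1.18% in KO libraries. Their summed level was 14444 to 15184 CPM in control and 11665 to 11828 CPM in KO libraries, so that the groups did not overlap.

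**Figure D2:**
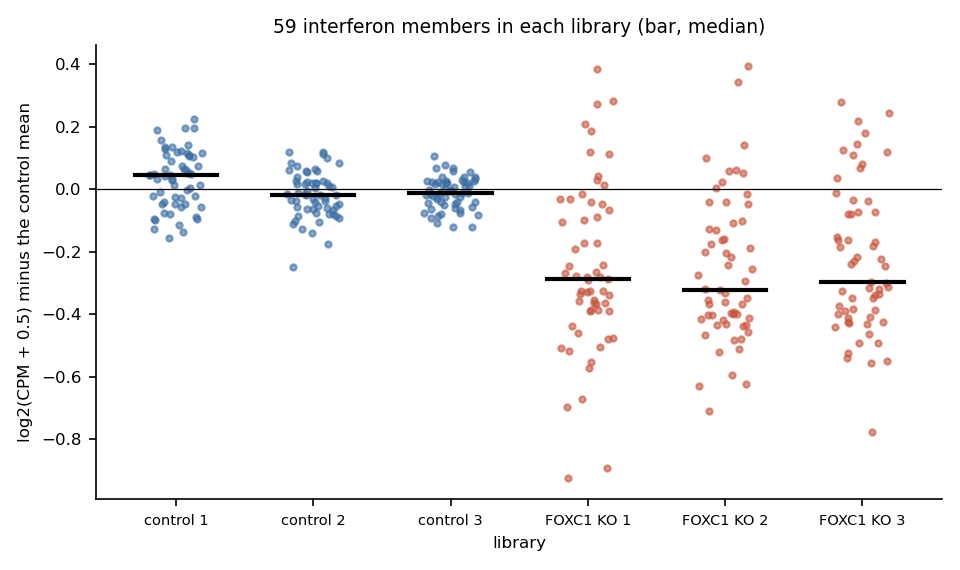
Deviation of each of the 59 genes (points) from its control mean in each library, as log2(CPM + 0.5), with the median as a black bar. The medians of the 3 KO libraries lie between -0.32 and -0.29 and those of the 3 control libraries between -0.02 and 0.04.

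Many of these genes were at a high level in the control cells, where 40 of the 59 had a mean of at least 100 CPM. Over all libraries, the median tested gene had a mean of 20.7 CPM. A mean of at least 50 CPM was reached by 46 of the 59 and by 4720 of all 15647 tested genes. To compare levels between genes, CPM were divided by the length of the canonical transcript. On this scale of CPM per kb, the highest control levels were those of IFI6 (1695), IFITM3 (1438) and IFI27 (1209), followed by BST2 (612), IFITM1 (607) and ISG15 (518). The lowest control levels per kb were found for TLR3 (2.27), IFNAR2 (2.69), IFITM2 (2.82) and IRF9 (3.84). The 6 genes at the top of this order were all effectors, and the 4 at its end came from all 3 roles.

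Among the 14 sensors and adaptors, 4 (28.6%) were called lower and 0 higher, beside 8.39% and 7.57% of all tested genes. Their median log2 fold change was -0.30. DDX60, a helicase that aids RNA sensing, was measured at 143, 148 and 147 CPM in control and at 98, 96.5 and 110 CPM in KO libraries. All KO values lay below all control values, and the log2 fold change was -0.52 (SE 0.0715, edgeR adjusted p = 1.42e-06). The adaptor TMEM173 (STING) relays the signal of cytosolic DNA. It was measured at 17.3, 14.3 and 14 CPM in control and at 10.2, 11.3 and 11.4 CPM in KO libraries. It differed by -0.46 on the log2 scale (SE 0.105, edgeR adjusted p = 0.00121) with no overlap between the groups, but without control replicate 1 its value was -0.37 and it was not called.

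The oligoadenylate synthetases, which sense double-stranded RNA and activate RNase L, are neighbours on chromosome 12 (GRCh37, OAS1 at 113343661 to 113371024, OAS3 at 113375856 to 113414265 and OAS2 at 113416200 to 113449528, all on the plus strand). OAS3 was measured at 1089, 929 and 964 CPM in control and at 758, 734 and 745 CPM in KO libraries, and its log2 fold change was -0.42 (SE 0.0727, edgeR adjusted p = 5.89e-05). OAS2 was measured at 627, 537 and 571 CPM in control and at 461, 412 and 430 CPM in KO libraries, with a log2 fold change of -0.41 (SE 0.073, edgeR adjusted p = 6.52e-05). OAS1 had 387, 371 and 369 CPM in control and 293, 285 and 295 CPM in KO libraries, and its log2 fold change of -0.37 fell just short of 1.3-fold (edgeR adjusted p = 8.8e-05). The groups did not overlap for any of the 3 synthetases. Control replicate 1 was the highest library for each of them, and without it OAS3 (-0.35) and OAS2 (-0.36) were no longer called. OAS2 (-0.38) was also not called without KO replicate 2. Of the 4 sensors and adaptors called lower, 1 remained, DDX60, without control replicate 1.

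The RNA helicases that start the response did not behave alike. IFIH1 (MDA5), which detects long double-stranded RNA, was measured at 131, 138 and 138 CPM in control and at 111, 100 and 110 CPM in KO libraries, a log2 fold change of -0.34 (edgeR adjusted p = 0.000428) that was under the fold threshold. DHX58 (LGP2), a regulator of both helicases, had a log2 fold change of -0.36 (edgeR adjusted p = 0.00166), also under the threshold. DDX58 (RIG-I), which detects the ends of viral RNA, was measured at 204, 210 and 208 CPM in control and at 200, 205 and 219 CPM in KO libraries. The groups overlapped for DDX58, and the 95% interval of its log2 fold change was -0.13 to 0.14. For this gene a difference of 1.3-fold in either direction lay outside the interval. The difference between DDX58 and the other helicases was itself not tested.

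The adaptor downstream of these helicases lay in the other direction. MAVS, a protein of the outer mitochondrial membrane, was measured at 78.1, 67.3 and 72 CPM in control and at 88, 91.8 and 85.6 CPM in KO libraries. The KO values all lay above the control values, and the log2 fold change was 0.29 (SE 0.0746, edgeR adjusted p = 0.00379), under the fold threshold. The DNA sensor MB21D1 (cGAS) had 70.6, 66.5 and 70 CPM in control and 79.8, 67 and 78.2 CPM in KO libraries, with a 95% interval of -0.04 to 0.28 and overlapping groups. IFI16, another DNA sensor, had a log2 fold change of -0.26 (edgeR adjusted p = 0.00509), and the endosomal RNA receptor TLR3 one of -0.27 (edgeR adjusted p = 0.0462). EIF2AK2 (PKR), a kinase that halts translation on RNA binding, and TRIM25, a ubiquitin ligase that acts on RIG-I, had log2 fold changes of -0.07 and -0.11 with overlapping groups.

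Among the 13 signalling components, 2 (15.4%) were called lower and 0 higher, beside 8.39% and 7.57% of all tested genes. Their median log2 fold change was 0.02. STAT2, a subunit of the complex that binds the ISRE, was measured at 270, 249 and 266 CPM in control and at 190, 198 and 178 CPM in KO libraries. The groups did not overlap, and the log2 fold change was -0.47 (SE 0.0691, edgeR adjusted p = 4.45e-06). USP18, which removes ISG15 from proteins and dampens receptor signalling, was measured at 47.3, 45.7 and 47.8 CPM in control and at 37.3, 35.3 and 33.2 CPM in KO libraries. Its log2 fold change was -0.41 (SE 0.0789, edgeR adjusted p = 0.000178), and it was not called without KO replicate 3 (-0.38). STAT2 and USP18 are themselves interferon-stimulated genes.

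The receptors showed no call. IFNAR1 and IFNAR2, the chains of the type I interferon receptor, had log2 fold changes of 0.16 (edgeR adjusted p = 0.129) and 0.10 (edgeR adjusted p = 0.513). IFNGR1 and IFNGR2, the chains of the interferon gamma receptor, were each at 0.02, with 95% intervals of -0.13 to 0.18 and -0.14 to 0.18. IFNAR2, IFNAR1 and IFNGR2 lie close together on chromosome 21 (GRCh37, 34577587 to 34851655). IFNAR2 shares 14.7% of its exon bases with IFNAR2-IL10RB on the same strand and 13% with IL10RB-DT on the other strand. IFNGR2 shares 15% with TMEM50B on the other strand, and the strand setting of the counting was not stated.

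The kinases bound to these receptors were not lower. TYK2 was measured at 62.9, 53.9 and 55.5 CPM in control and at 74.9, 75.4 and 69.7 CPM in KO libraries, so that all KO values lay above the control values. Its log2 fold change was 0.35 (SE 0.0773, edgeR adjusted p = 0.000819), under the fold threshold, but it was called higher without control replicate 1 (0.41) and without KO replicate 3 (0.38). JAK1 had 226, 213 and 216 CPM in control and 248, 222 and 237 CPM in KO libraries, with overlapping groups and a 95% interval of -0.03 to 0.25.

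Of the interferon regulatory factors, IRF7, which sustains interferon alpha production, had 57.5, 54.9 and 51.7 CPM in control and 44.9, 45.7 and 41.6 CPM in KO libraries. It differed by -0.31 on the log2 scale (edgeR adjusted p = 0.00279) without overlap, under the fold threshold, as did IRF2 with -0.32 (edgeR adjusted p = 0.00419). IRF1, which is induced by interferon gamma, had 128, 110 and 118 CPM in control and 121, 127 and 121 CPM in KO libraries, with a 95% interval of -0.10 to 0.20. IRF3, which is activated by phosphorylation, had a log2 fold change of 0.04. Of the exon bases of IRF1 22.9%, and of those of IRF3 19.3%, overlap a gene on the other strand, so both values are uncertain. IRF9, the DNA-binding subunit of the complex with STAT2, had a low level of 6.25 ± 0.442 CPM in control and 5.23 ± 0.682 CPM in KO libraries (SD, n = 3 each). For IRF9 23.9% of exon bases are shared with an overlapping gene on the same strand, and its log2 fold change of -0.26 did not pass the test (edgeR adjusted p = 0.128).

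**Figure D3:**
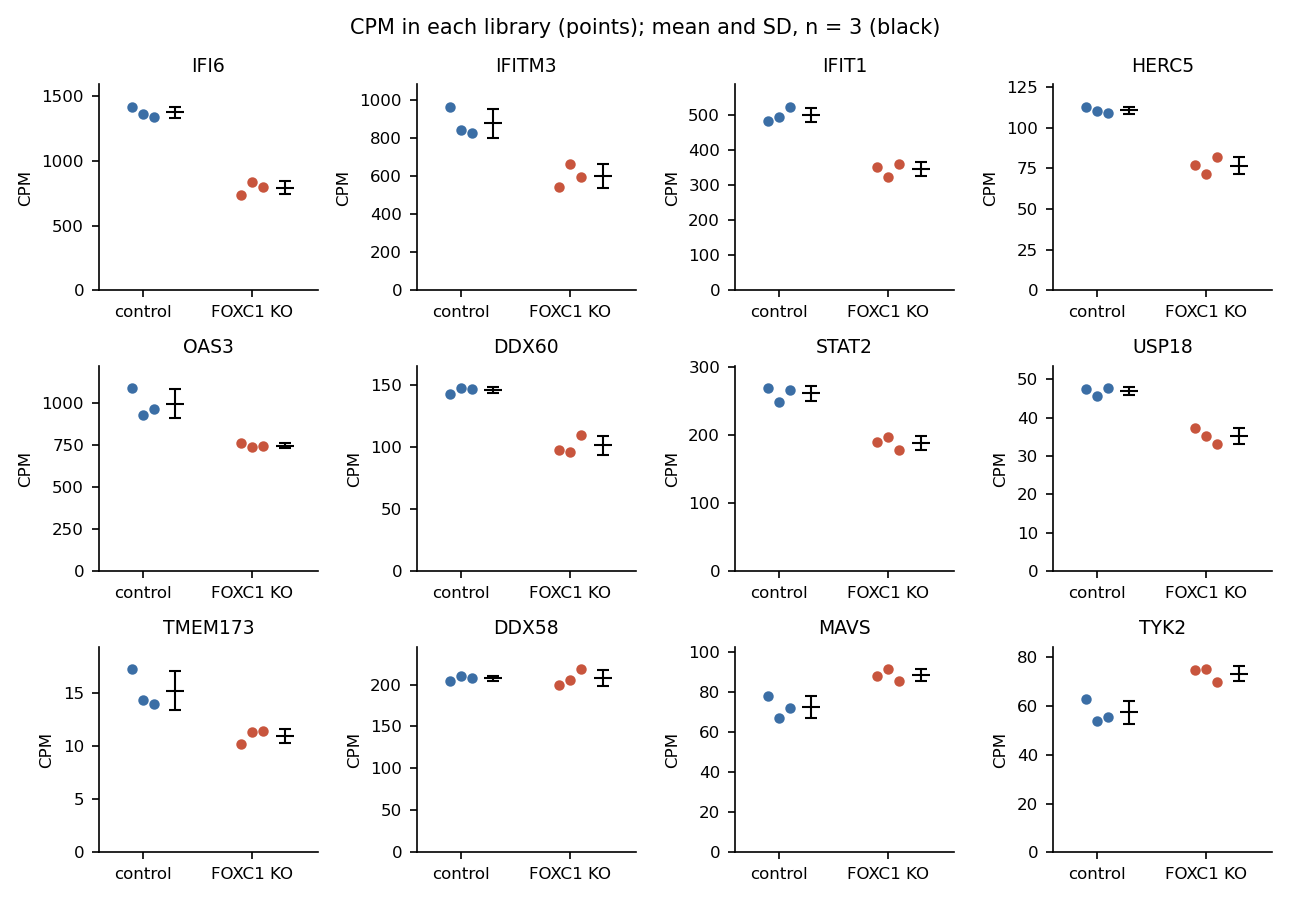
CPM of 12 of the genes in each library (blue, control; red, FOXC1 KO), with the mean and SD over 3 libraries in black and every axis starting at 0. IFI6, IFITM3, IFIT1, HERC5, OAS3, DDX60, STAT2, USP18 and TMEM173 show no overlap with KO below, DDX58 overlaps, and MAVS and TYK2 show no overlap with KO above.

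Among the 32 effectors, 12 (37.5%) were called lower and 0 higher, beside 8.39% and 7.57% of all tested genes. Their median log2 fold change was -0.34, and 30 of the 32 lay below zero. At an unadjusted p under 0.05, 27 lay lower and 0 higher (19.4% and 20.4% of all tested genes), and DESeq2 called 11 lower and 0 higher (5.78% and 6.07% of the genes it tested). Every KO library lay below every control library for 26 of them, where this held for 20.8% of all tested genes. The groups overlapped for 6.

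IFI6, a small membrane protein that restricts viral replication, had the lowest log2 fold change of the 59 genes. It was measured at 1421, 1363 and 1344 CPM in control and at 741, 840 and 802 CPM in KO libraries. The log2 fold change was -0.79 (SE 0.0719, edgeR adjusted p = 8.03e-10), or -42.3%. It was the only one of the 59 genes for which a test directly against a 1.3-fold change (glmTreat of edgeR) passed (adjusted p = 1.11e-05). IFI6 lies on chromosome 1 (GRCh37, 27992575 to 27998723, minus strand), and 23.1% of its exon bases are shared with the long noncoding gene LINC02574 on the same strand, so reads of both cannot be told apart there.

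The IFITM proteins, which hinder the entry of enveloped viruses at membranes, are neighbours on chromosome 11 (GRCh37, IFITM2 at 303655 to 309397, IFITM1 at 310041 to 315272 and IFITM3 at 319676 to 329475). IFITM3 was measured at 966, 842 and 828 CPM in control and at 541, 665 and 595 CPM in KO libraries, a log2 fold change of -0.55 (SE 0.0793, edgeR adjusted p = 3.66e-06). IFITM1 was measured at 424, 406 and 386 CPM in control and at 291, 295 and 301 CPM in KO libraries, a log2 fold change of -0.46 (SE 0.0677, edgeR adjusted p = 5.72e-06). Neither pair of groups overlapped. IFITM2 was near the low end, at 3.08, 2.87 and 2.55 CPM in control and 1.25, 2.14 and 1.78 CPM in KO libraries. Its log2 fold change was -0.68 (SE 0.191, edgeR adjusted p = 0.00752), but DESeq2 did not call it (adjusted p = 0.0537). The 3 genes are closely similar in sequence, so the authors' counting could have split or lost reads between them, and the single values are uncertain.

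The IFIT proteins bind viral RNA and block its translation, and their genes lie in a row on chromosome 10 (GRCh37, 91043451 to 91181362). IFIT1 was measured at 483, 492 and 523 CPM in control and at 351, 323 and 361 CPM in KO libraries, a log2 fold change of -0.53 (SE 0.0698, edgeR adjusted p = 7.62e-07). IFIT3 had 385, 394 and 383 CPM in control and 278, 300 and 331 CPM in KO libraries. Its log2 fold change of -0.35 (edgeR adjusted p = 0.00033) and that of IFIT2, -0.28 (edgeR adjusted p = 0.0052), were under the fold threshold, with no overlap between groups. IFIT5, the last gene of the row, had 62.3, 74.5 and 69.6 CPM in control and 65.5, 63.9 and 79.9 CPM in KO libraries. The groups overlapped, and the 95% interval of the log2 fold change of IFIT5 was -0.16 to 0.20. The intervals of IFIT1 (-0.67 to -0.39) and IFIT5 did not overlap, although the difference between these neighbours was not tested itself.

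ISG15 is a ubiquitin-like protein that is joined to other proteins by enzymes including UBE2L6 and HERC5. HERC5, the ligase, was measured at 113, 110 and 109 CPM in control and at 77, 71.3 and 81.8 CPM in KO libraries. Its log2 fold change was -0.53 (SE 0.0728, edgeR adjusted p = 1.73e-06), and the groups were far apart relative to their spread. ISG15 had 366, 314 and 308 CPM in control and 260, 278 and 249 CPM in KO libraries, a log2 fold change of -0.33 (edgeR adjusted p = 0.00106). The conjugating enzyme UBE2L6, at -0.35 (edgeR adjusted p = 0.000251), and HERC6, the neighbour of HERC5 on chromosome 4, at -0.32 (edgeR adjusted p = 0.00079), were likewise under the fold threshold with no overlap between groups. ISG15, its conjugating enzyme, its ligase and its protease USP18 thus all had log2 fold changes between -0.53 and -0.33.

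The remaining effectors called lower have varied roles. ISG20, an exonuclease that degrades RNA, was measured at 14.7, 10.6 and 13.3 CPM in control and at 7.82, 9.87 and 8.71 CPM in KO libraries, a log2 fold change of -0.54 (edgeR adjusted p = 0.000922). SAMD9L, a cytoplasmic antiviral and growth-restraining protein, had 103, 112 and 98.9 CPM in control and 73.3, 75.4 and 79.9 CPM in KO libraries, a log2 fold change of -0.46 (edgeR adjusted p = 1.87e-05). Its neighbour and paralogue SAMD9 had a log2 fold change of -0.19 (edgeR adjusted p = 0.0542) with overlapping groups. PLSCR1, a phospholipid scramblase, had 411, 428 and 429 CPM in control and 312, 296 and 335 CPM in KO libraries, a log2 fold change of -0.43 (edgeR adjusted p = 1.9e-05). For each of the 3 called genes the KO libraries lay below all control libraries.

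CMPK2, a mitochondrial nucleotide kinase, was measured at 45.5, 43.6 and 47.9 CPM in control and at 34.8, 31.7 and 36 CPM in KO libraries, with a log2 fold change of -0.42 (edgeR adjusted p = 0.000186). RSAD2 (viperin), which starts beside it on chromosome 2 on the other strand, had a log2 fold change of -0.21 (edgeR adjusted p = 0.0577) with overlapping groups. MX2, a dynamin-like GTPase that restricts lentiviruses, had 192, 178 and 181 CPM in control and 146, 138 and 136 CPM in KO libraries, with a log2 fold change of -0.39 (edgeR adjusted p = 6.29e-05). Its neighbour MX1 on chromosome 21, which restricts influenza viruses, had 716, 567 and 601 CPM in control and 547, 487 and 490 CPM in KO libraries, with a log2 fold change of -0.31 (edgeR adjusted p = 0.00396). PARP9, which works with a ubiquitin ligase in interferon signalling, had 179, 197 and 193 CPM in control and 147, 136 and 151 CPM in KO libraries, with a log2 fold change of -0.39 (edgeR adjusted p = 8.64e-05). CMPK2, MX1, MX2 and PARP9 all showed no overlap.

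The calls of these genes stood close to the fold threshold. Without KO replicate 2, CMPK2 (-0.37), MX2 (-0.38) and PARP9 (-0.35) were not called. MX2 was also not called without control replicate 1 (-0.37) or KO replicate 3 (-0.38), and PARP9 not without control replicate 2 (-0.37) or 3 (-0.38). Conversely, 9 genes that were not called in the full data were called when 1 library was left out, among them MX1, IFIT3, SP100 and OAS1. Of the 18 genes called lower, 10 kept their call in all 14 alternatives other than the test against 1.3-fold, namely DDX60, STAT2, IFI6, IFIT1, IFITM1, IFITM3, ISG20, HERC5, SAMD9L and PLSCR1.

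Of the effectors that were not called, several were among the most abundant. IFI27, a small hydrophobic protein, had 893, 876 and 827 CPM in control and 719, 744 and 695 CPM in KO libraries, a log2 fold change of -0.27 (edgeR adjusted p = 0.00408). BST2 (tetherin), which holds budding virions on the cell surface, had 631, 606 and 602 CPM in control and 506, 532 and 519 CPM in KO libraries, a log2 fold change of -0.24 (edgeR adjusted p = 0.00735). Both showed KO libraries below all control libraries, with a difference that was larger than the spread but smaller than 1.3-fold. SP100, a nuclear body protein (-0.38), TRIM22, a ubiquitin ligase (-0.35), IFI44L (-0.31) and IFI35 (-0.28) were in the same position.

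The groups overlapped for 6 effectors. ADAR, the RNA editing enzyme that marks self RNA, had a log2 fold change of -0.11 (edgeR adjusted p = 0.238), and OASL, a synthetase relative without enzyme activity, one of -0.08 (edgeR adjusted p = 0.491). IFI44, which lies next to IFI44L on chromosome 1 (GRCh37, 79115481 to 79129763), had 191, 231 and 219 CPM in control and 210, 220 and 232 CPM in KO libraries. Its 95% interval was -0.10 to 0.20 on the log2 scale, while that of its neighbour IFI44L was -0.46 to -0.16. IFIT5, SAMD9 and RSAD2 were the other 3. XAF1, a proapoptotic protein (-0.16, edgeR adjusted p = 0.0746), and PARP14 (-0.12, edgeR adjusted p = 0.18) did not overlap but did not pass the test.

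The share of promoters with an ISRE core differed by role. It was present in 19 of the 27 effectors with a promoter entry, in 5 of the 10 sensors and adaptors and in 0 of the 8 signalling components. The 24 genes with the motif had a median log2 fold change of -0.34, with 10 called lower and 22 below zero. The 21 genes without it had a median of -0.16, with 3 called lower and 13 below zero. A core with a single base between its GAAA repeats was not counted. Among the 21, OAS1, DDX58, XAF1, CMPK2, TRIM25, IFI16 and IFI35 held such a shorter core, so this set is not free of related letters. Within the effectors the median was -0.33 both with the motif (19 genes, 8 called lower) and without it (8 genes, 2 called lower). Within the sensors and adaptors it was -0.34 with the motif (5 genes, 2 called lower) and -0.11 without it (5 genes, 0 called lower). The differences between these sets were not tested.

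In the sequences printed above, which were chosen with their fold changes known, IFI6 held 3 matches, which began at -156, -115 and -93 relative to the start. IFIT1 held 2 (-116 and -103), and IFIT5 held 3 (-45, -19 and -4), with log2 fold changes of -0.53 and 0.02. IFI44, at 0.05, held 1 match, a single site that lay in both of its overlapping windows. The gamma-activated sequence, TTCNNNGAA, was found in the promoters of 12 of the 45 genes (26.7%) and of 9.38% of all genes. The median log2 fold change was -0.28 for the 12 and -0.31 for the 33 without it, a difference that was not tested. A match is a description of the letters, and binding was not measured here. No promoter entry was found for DHX58, MB21D1, TMEM173, OAS2, IFNAR2, IRF2, IRF3, IRF7, USP18, IFIT2, IFITM2, MX2, OASL and TRIM22.

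**Figure D4:**
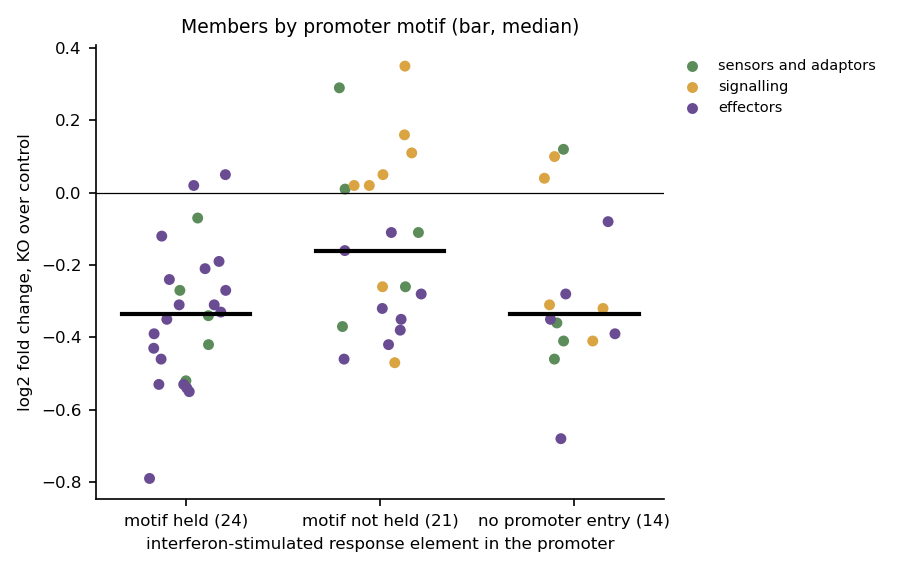
Log2 fold change (KO over control, y axis) of the 59 genes (points, coloured by role) by whether the promoter held an ISRE core, with the median as a black bar. The medians are -0.34 with the motif, -0.16 without it and -0.33 for the 14 genes with no promoter entry, and the points above zero in the middle group are signalling genes and sensors.

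To place the 59 genes in their pathway, other genes of interferon signalling and innate immunity were examined in lists chosen by role. Of 137 such genes that were matched, 106 were tested, with a median log2 fold change of -0.05. Among these, 15 (14.2%) were called lower and 14 (13.2%) higher, beside 8.39% and 7.57% of all tested genes.

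Interferon transcripts themselves, apart from IFNE, had at most 4 counts in any library. Of 21 interferon genes, 13 had 0 counts in all 6 libraries, under the floor of 0.118 to 0.163 CPM in a library. The treatment of reads that map to several places was not given. For interferon genes with near-identical copies, 0 counts therefore do not bound the level. IFNB1, the interferon that most cells make first, had 1 to 4 counts, and IFNA1 0 to 4 counts. IFNE, an interferon of epithelia, was the only one tested, with 22 to 43 counts and a log2 fold change of 0.06 (95% interval -0.41 to 0.52, edgeR adjusted p = 0.881). For the other interferon transcripts a difference was not detectable in these counts, and interferon protein was not measured.

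IFNLR1, the specific chain of the interferon lambda receptor, had 4.46, 4.34 and 4.01 CPM in control and 2.01, 1.82 and 2.51 CPM in KO libraries, a log2 fold change of -1.01 (SE 0.163, edgeR adjusted p = 1.82e-05). It was the only interferon receptor gene called lower. JAK2, which serves the interferon gamma receptor, overlapped between groups with a log2 fold change of 0.18 (edgeR adjusted p = 0.186).

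Among 15 negative regulators, 2 (13.3%) were called lower and 1 (6.67%) higher, beside 8.39% and 7.57% of all tested genes. PTPN6, a phosphatase of cytokine receptors, had a log2 fold change of -0.93 (edgeR adjusted p = 1.38e-06), and SOCS3, an inhibitor of JAK kinases, one of -0.39 (edgeR adjusted p = 0.00537). TNFAIP3 (A20), a brake on NF-kappaB, had one of 0.39 (edgeR adjusted p = 0.00234). Among 20 tested adaptors, kinases and other sensors, 1 (5%) was called lower and 2 (10%) higher. The shares called in both lists were near those of all tested genes. TLR4, the lipopolysaccharide receptor, was called lower (-0.76, edgeR adjusted p = 5.37e-09). TRAF3, which links MAVS to its kinases, was called higher (0.58, edgeR adjusted p = 6.44e-07), as was TICAM1, the adaptor of TLR3 (0.43, edgeR adjusted p = 0.00429). The median of either list was 0.09.

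Interferon-stimulated genes outside the 59 were examined next. Of 51 tested, 11 (21.6%) were called lower and 3 (5.88%) higher, beside 8.39% and 7.57% of all tested genes. Of the 51, 42 lay below zero, and the median log2 fold change was -0.21. IDO1, which degrades tryptophan, was measured at 53.8, 52.5 and 51.9 CPM in control and at 21.3, 21.4 and 22.3 CPM in KO libraries, a log2 fold change of -1.28 (SE 0.0801, edgeR adjusted p = 2.72e-13). The chaperone RTP4 (-0.72), the GMP reductase GMPR (-0.69) and TDRD7 (-0.58) were also called lower. The 3 called higher were all guanylate-binding proteins, GTPases that attack intracellular pathogens. Of these, GBP5 had 3.74, 4.5 and 4.36 CPM in control and 13, 11.3 and 11.4 CPM in KO libraries, a log2 fold change of 1.49 (SE 0.12, edgeR adjusted p = 7.8e-11). The others were GBP1 (0.58) and GBP2 (0.41). GBP3 (0.27, edgeR adjusted p = 0.0133) and GBP4 (-0.23, edgeR adjusted p = 0.0205) were not called, and GBP4 lay in the other direction. All of these but GBP5 were chosen for naming after their values were seen.

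Target genes of NF-kappaB, the other main arm downstream of nucleic acid sensors, lay in the opposite direction. Of 15 tested, 8 (53.3%) were called higher and 0 lower, beside 7.57% and 8.39% of all tested genes. All 15 lay above zero, with a median log2 fold change of 0.38. At an unadjusted p under 0.05, 10 lay higher and 0 lower (20.4% and 19.4% of all tested genes), and DESeq2 called 8 higher and 0 lower (6.07% and 5.78% of the genes it tested). IL8, a chemokine that attracts neutrophils, had 3.3, 4.5 and 4.6 CPM in control and 15.9, 12.8 and 13.6 CPM in KO libraries, a log2 fold change of 1.76 (edgeR adjusted p = 8.47e-12). The cytokine IL6 (0.96), the chemokine CXCL1 (6.67 CPM in KO and 2.19 CPM in control libraries), the adhesion molecule ICAM1 (0.67) and the NF-kappaB subunit RELB (0.69) were also called higher.

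**Figure D5:**
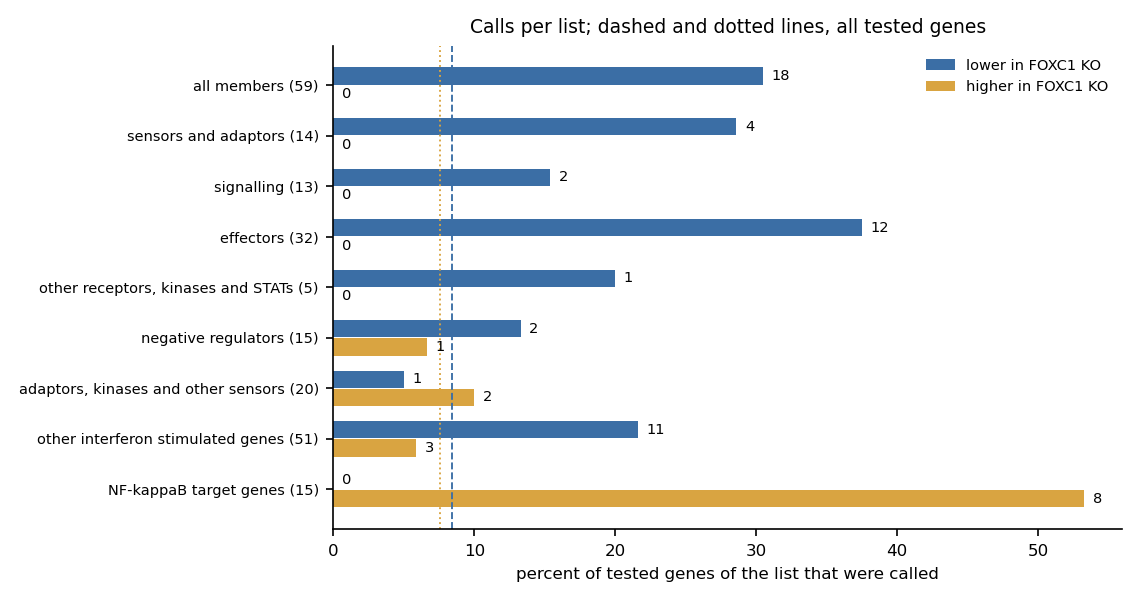
Share of the tested genes of each list that was called lower (blue) or higher (orange) in FOXC1 KO, with the number of genes beside each bar and the tested list size in parentheses. The dashed line marks the 8.39% called lower and the dotted line the 7.57% called higher among all tested genes.

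Markers of cell type moved with the groups as well. Of 9 tested urothelial and epithelial markers, 7 were called lower and 1, KRT17, higher. Among all tested genes 8.39% were called lower and 7.57% higher. The summed level of the list was 3183 to 4007 CPM in control and 2507 to 2788 CPM in KO libraries. The log2 fold change was -0.60 for KRT8, -0.51 for KRT18 and -0.70 for KRT19, and it was 2.50 for KRT17 (edgeR adjusted p = 1.91e-15), which went from 3.61 CPM in control to 20.3 CPM in KO libraries. Of 7 mesenchymal markers, 2 were called higher and 0 lower, and the summed levels overlapped (1813 to 1948 CPM in control and 1869 to 2140 CPM in KO libraries). The part of these differences in the result on interferon genes was not tested. Markers of leukocytes, which carry interferon genes at a high level, summed to 4.34 to 4.86 CPM in control and 6.38 to 7.39 CPM in KO libraries. Of 3 tested, 1, CD14, was called higher. Most of the sum was CD14, with a mean of 3.52 CPM in control and 5.38 CPM in KO libraries. CD68 and ITGAM were not called, and their groups overlapped. PTPRC (CD45), which all leukocytes carry, was not tested and had 3, 3 and 4 counts in control and 8, 6 and 9 counts in KO libraries. CD3E, CD3D, MS4A1, CLEC4C and IL3RA were at 0 counts in all libraries. Of 4 endothelial markers in the table, which summed to at most 1.90 CPM in any library, 1 of 2 tested, CDH5, was called higher (at most 0.0393 CPM in control and 0.714 to 1.1 CPM in KO libraries).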

How the data were processed

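RNA-seq of 3 control and 3 FOXC1 KO libraries of J82 was analysed, with groups taken from the sample titles. The authors had aligned paired reads to hg19 with STAR and deposited raw counts per gene, assigned to GENCODE version 19 genes with featureCounts (Subread), and the table held 0 columns of other samples. Tool versions, strand setting and the treatment of reads that map to several places are not given in the sources used here, so genes that overlap another gene (23 of the 59 share exon bases with one) or that have near-identical copies are uncertain.

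The 59 genes and the other lists were chosen with earlier results of these data known. Genes were filtered with filterByExpr, and all were fitted with TMM normalization and the robust quasi-likelihood test of edgeR 4.0.16 in R 4.3.3, with group as the only term. The thresholds on adjusted p (0.05) and fold change (1.3) are those of the study's methods, whose tool, DESeq2 (1.42.0), was an alternative. The study filtered with DESeq2 defaults. Standard errors were derived from the F statistic. CPM used TMM-scaled library sizes of 18408134 to 25350908 counts before scaling. Deviations per library used a pseudocount of 0.5 CPM. Symbols and coordinates came from GENCODE version 44 on GRCh37, the assembly of hg19, and 96.05% of identifiers had a symbol. Any of the 59 genes could be named, and of each other list at most 5 called genes with the smallest p, besides IFNLR1, JAK2 and interferons with counts. GBP1, GBP2, GBP3 and GBP4 were added after their values were seen, and cell type markers were named as checks. A few genes of these lists are not reported here. The fit was tested on simulated data. The alternatives were other normalizations, filters, thresholds and tests, thinning to the smallest library, a replicate block, leaving out each library and other motif settings.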

Additional observations from a re-analysis of the deposited data

How the results depend on the processing

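The 18 genes called lower became 17 with DESeq2, 18 with RLE size factors, 19 with library size alone, 18 without a filter, 20 with a mean of at least 50 counts and 20 after thinning to the smallest library, and the number called higher stayed at 0 in each of these. The fold threshold decided far more: with adjusted p alone 37 were lower and 2 higher, and in the test against 1.3-fold 1 was lower (IFI6). Of the other pathway genes, where 15 were called lower and 14 higher, 34 were lower and 19 higher with adjusted p alone, and 8 were lower and 8 higher in the test against 1.3-fold. A stricter or looser threshold changes these counts by construction. Shares called among all tested genes are given above for DESeq2 and for adjusted p alone. For the other settings of this section no such share is given. Their counts therefore do not show whether the listed genes moved more or less than all tested genes. Leaving out each library in turn gave 14 to 21 genes called lower, 0 to 1 called higher (TYK2) and a median log2 fold change of -0.32 to -0.28, with 14 to 18 called lower and 11 to 14 higher in the other lists. The lowest count of 14 came without KO replicate 2. The median of the signalling components, 0.02, ranged from -0.01 (without control replicate 2) to 0.05 (without KO replicate 3), and the cause was not tested. With 1 mismatch allowed in the ISRE core, 73.3% of the genes with a promoter entry held it, beside 37.7% of all genes.

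With the replicate number as a block, 18 genes were called lower and 0 higher, and 16 and 14 in the other lists. The deviations of libraries with the same number correlated at -0.0271, -0.0718 and 0.0501, so the numbers were not taken to pair the libraries. Depth limits the interferon transcripts other than IFNE, which had at most 4 counts in a library, as may reads that map to several places. With 3 libraries in each group an exact permutation test of a single gene cannot go below p = 0.1.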

Other observations

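The lower level of the interferon genes was seen among abundant transcripts, where few other genes were called. Of the 46 with a mean of at least 50 CPM, 13 were called lower, with a median log2 fold change of -0.29, while 204 (4.32%) of all 4720 tested genes at this level were called lower, with a median of 0.02. Of the 11 between 10 and 50 CPM, 4 were called lower with a median of -0.32, where 6.58% of all 5013 tested genes at this level were called lower. Under 10 CPM there were 2, IRF9 and IFITM2, of which IFITM2 was called lower, where 13.2% of all 5914 tested genes at this level were called lower, with a median of -0.05.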
